A study of Mus musculus with 18 samples.

Results

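Vitronectin (Vtn) and 9 genes that mark mural cells, Pdgfrb, Rgs5, Kcnj8, Abcc9, Cspg4, Notch3, Myh11, Higd1b and Mcam, were followed in TCF21-lineage cardiac fibroblasts of the neonatal mouse, to ask whether Vtn rises with the other mural cell genes or apart from them. The 10 genes were chosen by name, after the rise of Vtn between P2 and P10 at baseline had been seen in these data. They are 10 of the 55453 gene symbols counted, and all 10 passed the filter on low counts, as did 16170 genes in all.

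Mural cells are the pericytes that wrap capillaries and the smooth muscle cells that wrap arterioles. Pericytes are recruited to new vessels by endothelial Pdgfb, which binds the receptor encoded by Pdgfrb, and Notch3 is the receptor through which endothelial ligands act on them. Vitronectin is an adhesive glycoprotein of plasma and extracellular matrix that binds integrins and plasminogen activator inhibitor. Adult plasma receives it mainly from the liver, and it is also a known transcript of pericytes.

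The pups were Tcf21-MerCreMer; Rosa-mTmG (by the study's methods with 1 copy of each allele) on C57BL/6J, in which tamoxifen given on the first day after birth turns on GFP in cells that then express Tcf21, a transcription factor of resident cardiac fibroblasts. All 6 groups carried these alleles and received tamoxifen, and each held 3 RNA-seq libraries of sorted GFP+ cells from the apical part of the ventricles. P2 baseline and P10 baseline pups had no surgery, P2 sham +3 days pups and the P2 resected +3 days pups, whose apex was cut away, were operated on at P2 and collected at P5, and the P10 sham +3 days pups and their P10 resected +3 days counterparts were operated on at P10 and collected at P13. The Tcf21 label marks a lineage and not a cell state. Since P10 and P13 hearts were digested for longer than P2 and P5 hearts, age and digestion time cannot be told apart. The labels do not say how many pups gave a library, so p-values measure only the spread between these libraries, which may be technical.

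Total counts were 10462737 to 22980554 per library. Tcf21 had group means of 251 to 331 CPM, the share of a library's counts scaled to 1e+06, and the 9 listed fibroblast genes summed to 54167 to 117188 CPM, against 190 to 552 CPM for 9 endothelial genes, 7.76 to 1019 CPM for 9 macrophage genes and 155 to 1482 CPM for 8 cardiomyocyte genes. Tek alone held 154 to 454 CPM of the endothelial sum. The 10 mural cell genes summed to 518 to 2092 CPM. In RNA from a sorted population, fewer cells of a type and less RNA per cell cannot be told apart, so a level below may come from all of the sorted cells or from a few. In replicate 1 of P2 sham +3 days, of P10 baseline and of P10 sham +3 days, 3 libraries that stood apart, more of the counts fell on genes with long exons than in the other replicates of the group, and the age difference of Vtn is given below with and without them. These are the only 3 libraries whose titles end in 3, a number whose meaning the labels do not give.

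Vtn (ENSMUSG00000017344) lies on chromosome 11, plus strand, from 78499091 to 78502324 of GRCm38, with 6 merged exons of 2030 bases in all, none of which overlaps an exon of another gene. Its nearest annotated neighbours are Sarm1, which ends 1336 bases before it, and Sebox, which starts 1122 bases after it. Sebox had no counts in any library and Sarm1 reached at most 2.41 CPM. Tmem199, 4730 bases after Vtn, was at 11.2 to 23.1 CPM, Poldip2, 9868 bases after it, at 97.8 to 199 CPM, and Slc46a1, 27031 bases before it, at 0.279 to 42.6 CPM, and the noncoding Gm11195, 54189 bases before it, had no counts.

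The 250 bases before the RefSeq start site are shown for Vtn, which rose with age, for Kcnj8, the mural cell gene whose levels were most like those of Vtn, and for Rgs5, an abundant pericyte gene that did not pass the test. Each is written 5′ to 3′ on the strand of its gene, from RefSeq with build GRCm38.p6, at chr11:78498870-78499119, chr6:142571615-142571864 and chr1:169655251-169655500. Capitals mark matches, on either strand, to TGGGAA (the core bound by the Notch effector Rbpj), CANNTG (the E-box) or TATAAA (the TATA element), and the CArG box of smooth muscle promoters was searched as well.
Vtn: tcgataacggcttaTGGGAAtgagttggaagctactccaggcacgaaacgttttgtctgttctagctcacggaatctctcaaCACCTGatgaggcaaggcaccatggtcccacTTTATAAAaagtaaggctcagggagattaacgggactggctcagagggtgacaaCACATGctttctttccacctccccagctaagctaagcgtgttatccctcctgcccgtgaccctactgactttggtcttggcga
Kcnj8: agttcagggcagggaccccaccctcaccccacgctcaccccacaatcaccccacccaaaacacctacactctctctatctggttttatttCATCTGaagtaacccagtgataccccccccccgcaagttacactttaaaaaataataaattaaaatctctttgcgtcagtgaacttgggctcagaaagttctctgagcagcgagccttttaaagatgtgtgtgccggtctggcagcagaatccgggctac
Rgs5: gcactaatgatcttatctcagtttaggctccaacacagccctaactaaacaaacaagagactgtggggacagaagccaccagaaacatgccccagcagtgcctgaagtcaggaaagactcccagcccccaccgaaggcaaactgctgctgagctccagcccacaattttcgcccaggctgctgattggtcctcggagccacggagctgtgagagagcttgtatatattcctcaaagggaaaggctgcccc
The Vtn window held 1 TGGGAA, 2 CANNTG and 2 TATAAA matches, the last 2 overlapping on opposite strands, the Kcnj8 window held 1 CANNTG match, and the Rgs5 window held none. Of 32851 promoter windows of this length, 21.6% held TGGGAA, 66.2% CANNTG, 12.4% TATAAA and 1.47% the CArG box. A promoter was found for 7 of the 10 genes, and in none of the 7 was there a CArG box.

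At baseline, Vtn was the gene of the 10 that differed most between P2 and P10, and these values, by which it was noticed, are given as a description. Vtn was at 2.35, 0.465 and 0.0609 CPM in P2 baseline replicates 1, 2 and 3, the last being 1 read. In P10 baseline it was at 85.5, 161 and 167 CPM. Every P10 library was far above every P2 library, and the ratio of the means, 138 ± 45.3 to 0.958 ± 1.22 CPM (SD, n = 3), was 144. That ratio depends largely on the P2 library at 2.35 CPM.

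The other mural cell genes changed less in the baseline libraries. Myh11, the smooth muscle myosin heavy chain, had a P10 to P2 ratio of means of 12.02, with no reads in P2 baseline replicate 3. Higd1b, a small mitochondrial protein enriched in pericytes, had a ratio of 5.99, Kcnj8 3.91, Rgs5 2.92 and Pdgfrb 2.39, and for these 4 and Myh11 all P10 baseline libraries lay above all P2 baseline libraries. The Rgs5 ratio was raised by P10 baseline replicate 1, at 625 CPM against 211 and 225 CPM in the other libraries of the group. The ranges overlapped for Cspg4 (ratio 1.81), Notch3 (1.35), Abcc9 (1.23) and Mcam (0.723). Of all genes tested 10.3% were higher and 12.1% lower at P10 without overlap, so 6 of 10 genes here stand beside the first share, and since the genes were chosen with this contrast known nothing is read from it.

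Divided by exon length, so that genes can be compared, Vtn went from the lowest to the third highest mean level of the 10, places that turned between single libraries. At P2 baseline it was at 0.472 CPM per kilobase of exon, next to Myh11 at 0.605, whereas Mcam was at 38.8, Pdgfrb at 35.9, Rgs5 at 26.6 and Kcnj8 at 17.3. Vtn was above Myh11 per kilobase in replicate 1 of P2 baseline and below it in replicate 2. At P10 baseline Vtn was at 67.9 CPM per kilobase, beside Kcnj8 at 67.5 and below Rgs5 at 77.8 and Pdgfrb at 85.9. The Rgs5 mean was raised by replicate 1, at 625 CPM against 211 and 225 CPM, and in replicates 2 and 3 Vtn stood above Rgs5 per kilobase. Higd1b then stood at 38.8, Mcam at 28.03, Notch3 at 14.7, Abcc9 at 10.8, Cspg4 at 8.46 and Myh11 at 7.27 CPM per kilobase.

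**Figure D1:**
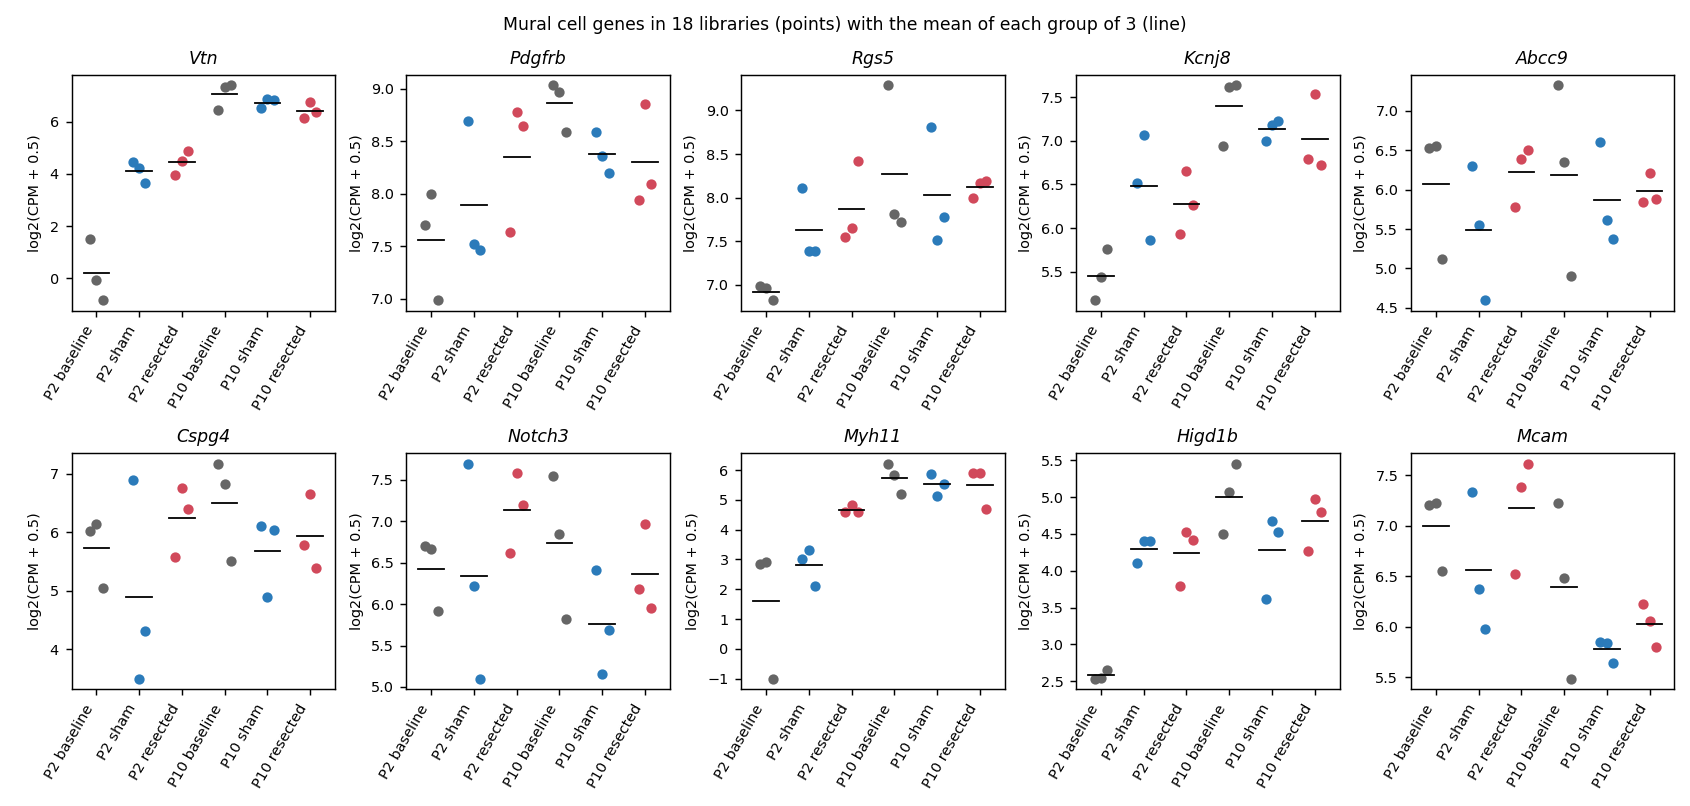
The level of each of the 10 genes, as log2(CPM + 0.5) on the vertical axis, in the 18 libraries (points; grey baseline, blue sham, red resected) of the 6 groups on the horizontal axis, with the mean of each group of 3 as a line; each panel has its own vertical range. Vtn goes from P2 baseline (0.0609 to 2.35 CPM) through the P2 surgery groups (12.01 to 28.8 CPM) to the P10 groups (70.2 to 167 CPM), while Abcc9, Cspg4 and Notch3 spread as widely within groups as between them.

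By day of collection, the level of Vtn was in 3 steps that did not overlap, as in 38 of all genes tested (0.235%). The steps use the baseline libraries in which Vtn was noticed, so nothing is read from that share. It was at 0.0609 to 2.35 CPM in the 3 libraries of P2, at 12.01 to 28.8 CPM in the 6 libraries of P5, and at 70.2 to 167 CPM in the 9 libraries of P10 and P13. Within the last step the ranges overlapped, with P10 baseline at 138 ± 45.3 CPM, P10 sham +3 days at 106 ± 13.9 CPM and P10 resected +3 days at 86.4 ± 18.2 CPM (SD, n = 3 each). The P5 libraries differ from P2 baseline in surgery as well as in age.

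Of the other 9 genes, 3 were likewise higher at P5 than at P2 without overlap, where 1.74% of all genes were. The P2 libraries are those of the baseline contrast, so nothing is read from this count. Higd1b was at 5.29 to 5.79 CPM at P2 and at 13.3 to 22.6 CPM at P5, Rgs5 at 113 to 126 and 167 to 343 CPM, and Kcnj8 at 35.6 to 53.6 and 57.8 to 134 CPM, in each case without overlap. From P5 to P13 all 3 overlapped, with Higd1b at 11.7 to 31.0 CPM, Rgs5 at 183 to 447 CPM and Kcnj8 at 105 to 185 CPM. Myh11 was at 3.85 to 27.6 CPM at P5, at 35.8 to 73.9 CPM at P10, all above P5, and at 25.6 to 59.4 CPM at P13, which overlapped P5 at its lower end.

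The age difference was tested between groups that had no part in the baseline contrast, first between P10 sham +3 days and P2 sham +3 days. The spread used in the test was estimated over all 18 libraries, so the baseline libraries bear on its errors and p-values. Vtn was at 21.2, 18.4 and 12.01 CPM in the P2 sham libraries and at 90.2, 116 and 112 CPM in the P10 sham libraries. The groups did not overlap, and Vtn rose by 2.62 ± 0.57 (SE) on the log2 scale, 6.16-fold, with an adjusted p of 0.0150 (edgeR's quasi-likelihood test, adjusted by Benjamini and Hochberg's method over all 16170 genes). Vtn was the 1 gene of the 10 to pass, where 3.18% of all genes tested passed, 1.54% higher and 1.65% lower. Without replicate 3 of P2 sham +3 days, its lowest library, the difference was 2.42 and the adjusted p 0.0734, and without any other library of these groups the adjusted p was at or under 0.0475.

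Myh11 differed by as much as Vtn but with a wider error. It was at 7.52, 9.41 and 3.85 CPM after sham surgery at P2 and at 58.5, 34.5 and 45.8 CPM after sham surgery at P10. The groups were apart, as in 9.07% of all genes tested, and the log2 difference was 2.74 ± 0.80 (SE), with an adjusted p of 0.0765 in edgeR's quasi-likelihood test. This gene passed the threshold under 5 of the other settings named in the closing section, among them DESeq2 with an adjusted p of 0.00758.

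The pericyte genes among the 10 did not pass. Pdgfrb was at 414, 183 and 176 CPM in P2 sham and 385, 329 and 292 CPM in P10 sham, a log2 difference of 0.38 (95% interval −0.39 to 1.16), which was 0.90 without replicate 1 of P2 sham and 0.17 to 0.47 without any other 1 library. Kcnj8, the pore subunit of the vascular ATP-sensitive potassium channel, was at 90.8, 134 and 57.8 CPM against 128, 145 and 150 CPM, a log2 difference of 0.58 (−0.08 to 1.24), 0.33 to 0.93 without 1 library of P2 sham. In both genes the groups overlapped.

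Rgs5, which shortens G protein signals in pericytes, differed by 0.48 (−0.36 to 1.32) on the log2 scale, Abcc9, the regulatory subunit of the Kcnj8 channel, by 0.33 (−0.79 to 1.44), Cspg4, the NG2 proteoglycan, by 0.14 (−1.28 to 1.55) and Higd1b by 0.04 (−0.68 to 0.76). Notch3 was lower by 0.88 (−2.03 to 0.27) and overlapped. The sign of each of these differences turned with some library left out, as listed in the closing section. Mcam, the adhesion molecule CD146 of endothelial and mural cells, was at 161, 82.4 and 62.4 CPM in P2 sham and at 57.2, 56.7 and 49.5 CPM in P10 sham. All 3 P10 libraries lay below the P2 libraries, as in 7.61% of all genes, with a log2 difference of −0.90 and an adjusted p of 0.274 by edgeR's quasi-likelihood test. Without replicate 1 of P2 sham, its highest library, the difference was −0.41. The median log2 difference was 0.33 over the 9 genes without Vtn and −0.07 over all genes tested.

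After resection the age difference of Vtn pointed the same way and did not pass with the spread estimated over all 18 libraries. Vtn was at 14.9, 22.05 and 28.8 CPM in P2 resected +3 days and at 70.2, 106 and 82.7 CPM in P10 resected +3 days. The groups did not overlap and the log2 difference was 1.98 ± 0.56 (SE), 3.94-fold, with an adjusted p of 0.128 in edgeR's quasi-likelihood test, in which 0.860% of all genes passed. It passed with DESeq2 (adjusted p = 0.00793), with only the compared groups in the fit (0.0150) and with no filter on low counts (8.7e-06).

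None of the other 9 genes passed after resection. Kcnj8 was at 60.4, 100.0 and 76.3 CPM at P5 and 110, 185 and 105 CPM at P13, apart as in 10.6% of all genes, with a log2 difference of 0.76 and an adjusted p of 0.446 by edgeR's quasi-likelihood test. Mcam was at 91.2, 167 and 195 CPM at P5 and 74.2, 66.0 and 55.2 CPM at P13, lower without overlap as in 12.7% of all genes, with a log2 difference of −1.21 and an adjusted p of 0.243. Mcam thus had every P13 library below every P5 library of its own surgery group, while Vtn had every P13 library above.

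Pdgfrb differed by −0.08 (95% interval −0.85 to 0.69) on the log2 scale, Rgs5 by 0.19 (−0.64 to 1.03), Abcc9 by −0.27 (−1.39 to 0.85), Cspg4 by −0.29 (−1.71 to 1.13), Notch3 by −0.75 (−1.90 to 0.40), Higd1b by 0.44 (−0.28 to 1.16) and Myh11 by 0.94 (−0.65 to 2.53). The median over the 9 genes without Vtn was −0.08, and −0.04 over all genes tested.

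**Figure D2:**
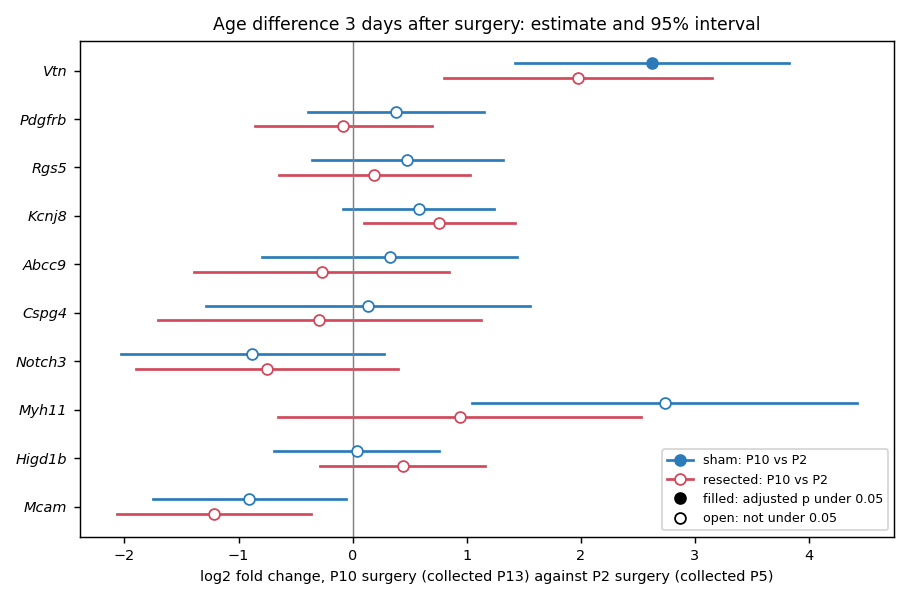
The log2 fold change of P10 surgery (collected P13) against P2 surgery (collected P5) on the horizontal axis for each of the 10 genes, after sham surgery (blue) and after resection (red); points are estimates, lines 95% intervals, and the point is filled where the adjusted p is under 0.05. The Vtn estimates of 2.62 and 1.98 and the Myh11 sham estimate of 2.74 lie above 0, the 2 Mcam estimates of −0.90 and −1.21 below it, and most of the other intervals cross 0.

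The level of Vtn relative to a mural cell gene was taken within each library, as the log2 ratio of Vtn to Pdgfrb, on CPM + 0.5. The mean ratio was −3.78 ± 0.49 in P2 sham, −1.66 ± 0.38 in P10 sham, −3.92 ± 0.32 in P2 resected and −1.88 ± 0.21 in P10 resected libraries (SD, n = 3 each). The 6 P5 libraries ran from −4.29 to −3.28 and the 6 P13 libraries from −2.12 to −1.38, without overlap. The difference of 2.08, 4.24-fold, had a two-sided exact permutation p of 0.005, the smallest that exchanging labels within each surgery over 400 arrangements can give, and 12 of 12 libraries were on the side of their age. The ratio of Vtn to 78.1% of all 16169 other genes tested also separated the ages, so this p largely restates the difference in Vtn in the same libraries and is no result particular to Pdgfrb.

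Given as ranges with no test, the ratio of Vtn to 7 of the 9 genes was higher in all P13 than in all P5 libraries. This count is close to the 78.1% of all other genes and is no result about the mural cell genes. The difference in the ratio was 1.97 on the log2 scale to Rgs5, 1.604 to Kcnj8, 2.23 to Abcc9, 2.97 to Notch3, 2.10 to Higd1b and 3.27 to Mcam. The ratio to Cspg4 overlapped, with P2 sham replicate 2, where Cspg4 was at 10.8 CPM, at 0.74, inside the P13 range of 0.09 to 1.98. The ratio to Myh11 did not separate the ages either, with a difference of −0.09 after sham surgery and of 1.15 after resection.

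**Figure D3:**
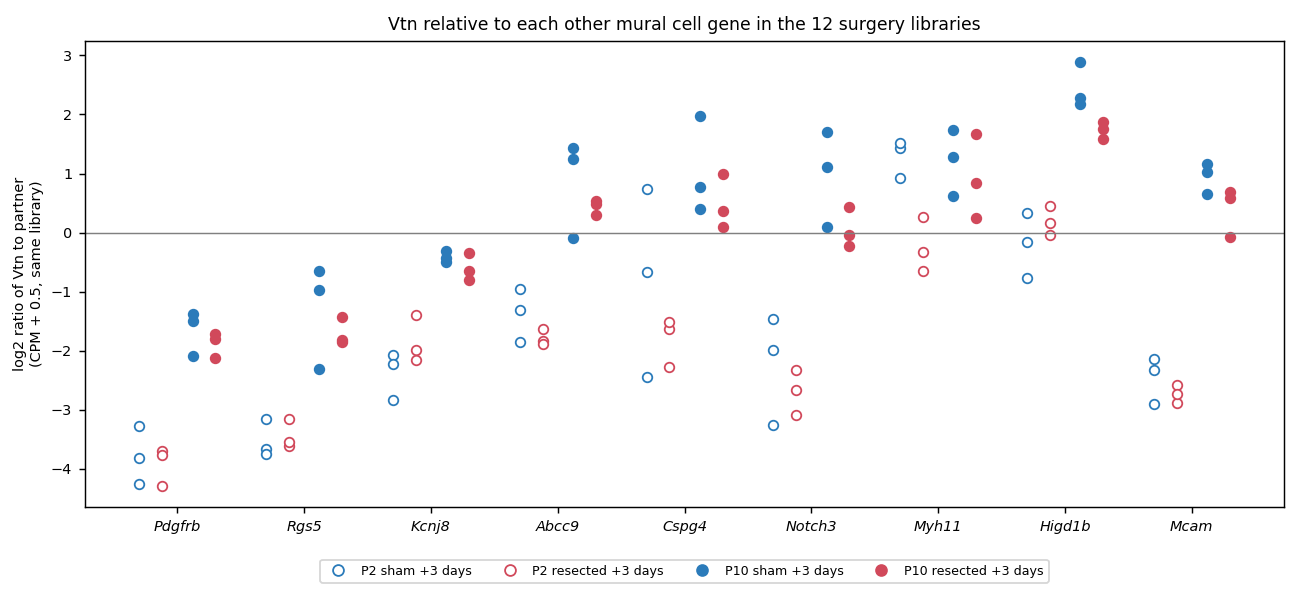
The log2 ratio of Vtn to each other mural cell gene within the same library (vertical axis, CPM + 0.5) for the 12 surgery libraries, open points P2 surgery and filled points P10 surgery, blue sham and red resected. Filled points lie above all open points for 7 partners of 9 (as for 78.1% of all other genes tested), for example −2.12 to −1.38 against −4.29 to −3.28 for Pdgfrb, and mix with them for Cspg4 and Myh11.

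Between resection and sham surgery no difference in Vtn was detectable with 3 libraries a group, at either age. The log2 difference was 0.35 (95% interval −0.79 to 1.49) at P2 +3 days and −0.30 (−1.42 to 0.83) at P10 +3 days. Of the other genes, Myh11 at P2 +3 days was the exception in size, at 23.7, 27.6 and 23.8 CPM after resection and 7.52, 9.41 and 3.85 CPM after sham surgery. The groups were apart, as in 5.62% of all genes (2.85% in the other direction), and the log2 difference of 1.85 (0.21 to 3.49) had an unadjusted p of 0.0293 and an adjusted p of 1 by edgeR's quasi-likelihood test, against 0.0170 with no filter on low counts.

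At P10 +3 days the log2 differences of the other 9 genes between resection and sham surgery ran from −0.08 for Kcnj8 to 0.59 for Notch3, and all overlapped, where 5.63% of all genes were higher and 3.04% lower without overlap. By edgeR's quasi-likelihood test 0 of 16170 genes passed at either age, with 730 genes (4.51%) at P2 and 661 (4.09%) at P10 under an unadjusted p of 0.05, and DESeq2 called 25 and 41 genes, none of the 10 among them. The resection effect at P10 minus that at P2, which equals the age effect after resection minus that after sham surgery, was −0.65 (−2.25 to 0.96) for Vtn, with an adjusted p of 1.00 in edgeR's quasi-likelihood test, in which 465 genes (2.88%) had an unadjusted p under 0.05 and 0 passed. All 4 comparisons draw on the same 12 libraries.

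Over the 18 libraries the levels of Vtn followed some mural cell genes and not others. Pearson's r of log2(CPM + 0.5) was 0.88 with Kcnj8, 0.87 with Higd1b and 0.87 with Myh11, which ranked 51, 54 and 66 among 16169 genes. It was 0.68 with both Rgs5 and Pdgfrb, ranks 733 and 734, and 0.21 with Cspg4, 0.05 with Abcc9, −0.04 with Notch3 and −0.49 with Mcam. These points share libraries, depth and the order of the ages, so the coefficients describe the pattern over groups and carry no test. Without P2 baseline r was 0.84 with Kcnj8, 0.79 with Myh11, 0.55 with Higd1b, 0.54 with Pdgfrb and 0.32 with Rgs5.

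The 8 genes most like Vtn by this measure over the 18 libraries were not on the mural cell lists used here, which do not hold every mural cell gene. They were Man1c1, a Golgi mannosidase, with r of 0.94, Pamr1, Cpxm1 and Gas6 at 0.93, and Palm, Tinagl1, Olfr558 and Evc at 0.92. Without P2 baseline the r of their levels with Vtn ran from 0.65 (Olfr558) to 0.94 (Palm), with Man1c1 at 0.82. Kcnj8 was then at 0.84 and Myh11 at 0.79. Gas6 is the ligand of the Axl family of receptors, Cpxm1 a secreted carboxypeptidase family member and Tinagl1 a matricellular protein. Over the libraries Pamr1 ran from 46.5 to 429 CPM and Tinagl1 from 5.61 to 80.01 CPM, against 0.0609 to 167 CPM for Vtn. After subtraction of group means, the r with Vtn was 0.82 for Tinagl1, 0.61 for Man1c1, 0.60 for Evc and −0.26 for Pamr1, and without P2 baseline 0.77, 0.63, 0.19 and 0.24.

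The genes most like Rgs5 were Tob1, Zfp36l2, Fgl2, Frmd6, Zc3h12a, Gadd45b, Gm44645 and Fstl1, at r of 0.86 to 0.90. For these the likeness was also seen between replicates, with r of the deviations from group means of 0.83 to 0.94. The Rgs5 deviations also followed the exon length slope described below (r of 0.82), whose part in this likeness was not tested. No gene was on both lists of 8, and with 16169 genes to draw from nothing is read from this.

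Between replicates of a group, the levels of the mural cell genes were compared as deviations from the group mean. Deviations of log2(CPM + 0.5) from the group mean had a Pearson r of 0.89 for Abcc9 with Mcam, 0.88 for Abcc9 with Notch3 and 0.86 for Cspg4 with Notch3. Over the 36 pairs among the 9 genes r ran from −0.61 to 0.89 with a median of 0.51, above 0 in 25. Over the 9 pairs with Vtn it ran from −0.09 (Rgs5) to 0.52 (Myh11) with a median of 0.23, above 0 in 8, with Pdgfrb at 0.45 and Higd1b at 0.36, and no test separates the 2 sets of pairs. These values rest in part on P2 baseline, where replicate 3 held 1 read of Vtn and 0 of Myh11. Over the other 15 libraries, chosen after the data were seen, r with Vtn was −0.04 for Myh11, 0.76 for Kcnj8, 0.67 for Higd1b, 0.49 for Pdgfrb and −0.23 for Rgs5, with a median of 0.15 over the 9 pairs, 6 above 0. Kcnj8 and Higd1b had an r of 0.53 with each other and of −0.61 to 0.22 with the block of Rgs5, Pdgfrb, Abcc9, Cspg4, Notch3 and Mcam. Kcnj8 and Abcc9, neighbours on chromosome 6 with 16247 bases and no gene between them, had an r of −0.10, although their proteins are subunits of the same channel.

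**Figure D4:**
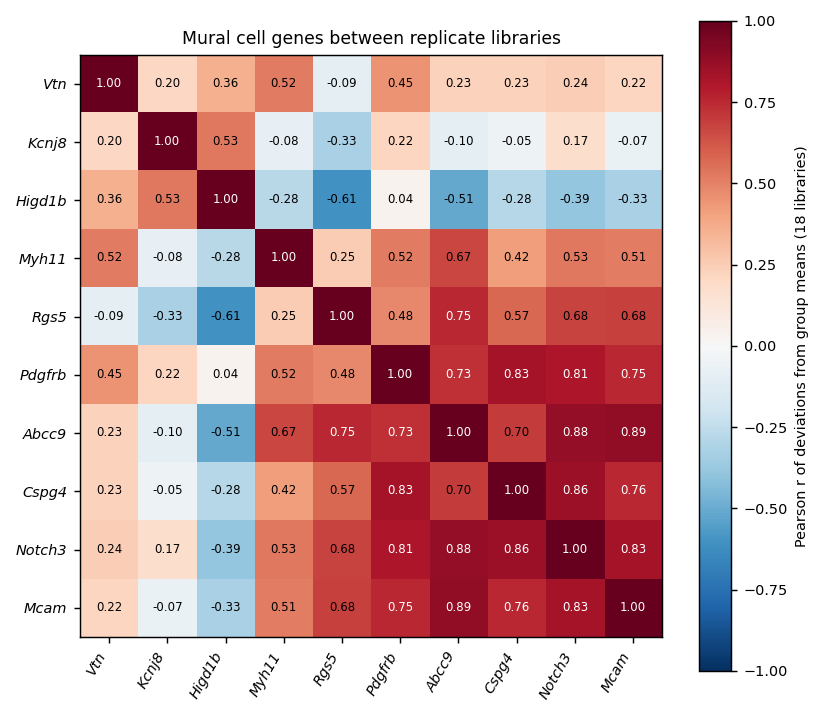
Pearson's r (colour and printed value) between the 10 genes of the deviations of log2(CPM + 0.5) from group means over 18 libraries. The Rgs5, Pdgfrb, Abcc9, Cspg4, Notch3 and Mcam corner holds r of 0.48 to 0.89, whereas the Vtn row holds −0.09 to 0.52 (−0.23 to 0.76 without P2 baseline) and Higd1b with Rgs5 is at −0.61.

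That block followed how the counts of a library were spread over long and short transcripts. In each library the deviations of 16073 genes were regressed on log2 exon length, and the slope ran from −0.17 per length doubling in P2 sham replicate 2 to 0.19 in P2 sham replicate 1, with 0.16 in replicate 1 of both P10 baseline and P10 sham. The r of a gene's deviations with this slope was 0.82 for Rgs5, 0.80 for Cspg4, 0.77 for Abcc9, 0.73 for Notch3, 0.69 for Mcam and 0.62 for Pdgfrb. It was 0.39 for Myh11, −0.47 for Kcnj8 and −0.66 for Higd1b, and −0.02 for Vtn. Without P2 baseline it was −0.29 for Vtn, which was lowest of its group in replicate 1 of P10 baseline and of P10 sham, 2 of the 3 libraries of highest slope, and 0.83 for Rgs5, 0.79 for Cspg4 and −0.67 for Higd1b.

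The exon lengths themselves run from 0.847 kilobases in Higd1b and 2.03 in Vtn to 11.9 in Cspg4, with Rgs5, which had the highest r with the slope, at 4.55. With the slope as a covariate, an analysis added after the data were seen, Vtn differed by 2.61 after sham surgery (adjusted p = 0.00408) and by 1.95 after resection (adjusted p = 0.05002) in edgeR's quasi-likelihood test. Without replicate 1 of P2 sham the sham difference was 2.80 and without replicate 1 of P10 sham 2.73. With the 3 libraries whose titles end in 3 left out together, also added after the data were seen, it was 2.90 after sham surgery (adjusted p = 0.0165) and 1.97 after resection (0.0392, passing) in edgeR's quasi-likelihood test. In contrast, Cspg4 went from 0.14 to 1.85 without replicate 1 of P2 sham, and Notch3 from −0.88 to 0.08.

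**Figure D5:**
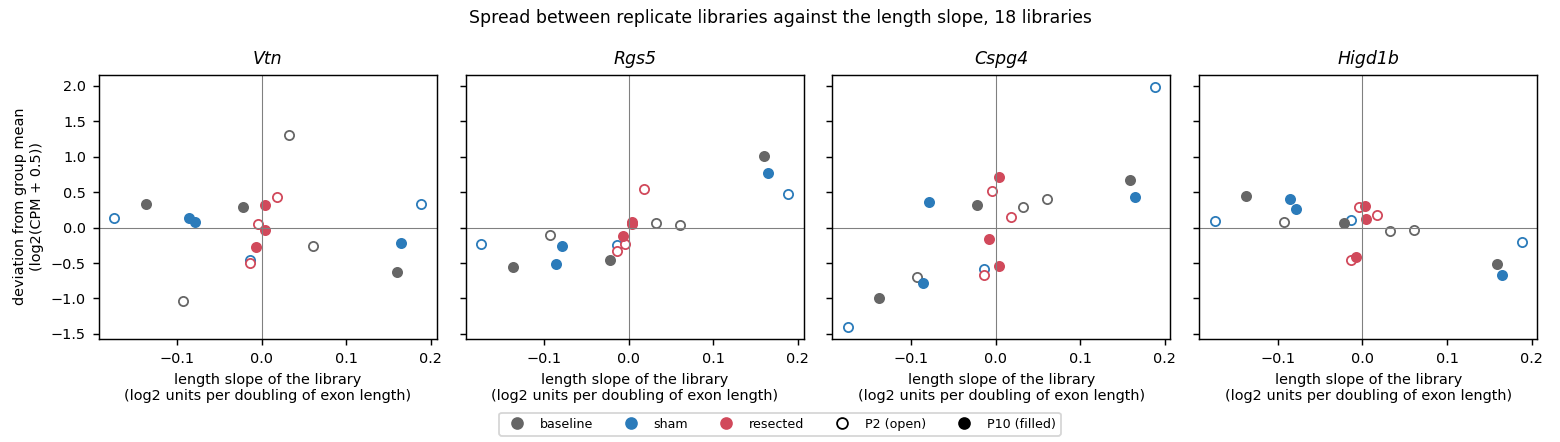
Deviation from the group mean in log2(CPM + 0.5) (vertical axis) for Vtn, Rgs5, Cspg4 and Higd1b against the length slope of the library (horizontal axis, log2 units per doubling of exon length), 18 libraries, grey baseline, blue sham, red resected, open P2 and filled P10. Rgs5 and Cspg4 rise with the slope (r of 0.82 and 0.80), Higd1b falls (−0.66), and for Vtn r is −0.02 over all libraries and −0.29 without P2 baseline.

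Further mural cell genes were read from lists. Of 15 further pericyte genes, 2 passed after sham surgery and 2 after resection, all higher at P13, where 1.54% and 0.625% of all genes rose. Without a test, 7 of the 15 were higher and 1 lower at P13 without overlap after sham surgery, and 5 higher and 0 lower after resection, beside 9.07% and 7.61%, and 10.6% and 12.7%, of all genes. Cd248, the endosialin of pericytes and fibroblasts, rose by 1.63 after sham surgery (adjusted p = 0.000891) and 1.28 after resection (0.0130), from 293 ± 50.8 to 907 ± 154 CPM and from 310 ± 34.7 to 756 ± 74.6 CPM (SD, n = 3). Anpep, an aminopeptidase, rose by 1.18 after sham surgery (adjusted p = 0.0370), and Steap4, a metalloreductase, by 2.07 after resection (0.0330), all by edgeR's quasi-likelihood test. Steap4 was at 96.8 to 344 CPM in P10 resected libraries.

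Several pericyte genes lay apart with age as Vtn did, without passing the test. Gja4, a connexin of vessels, was at 4.83, 6.59 and 16.97 CPM in P2 sham and 44.1, 56.5 and 44.6 CPM in P10 sham, a log2 difference of 2.36 (adjusted p = 0.0547, edgeR's quasi-likelihood test). Itga7, a laminin receptor subunit, was at 41.5, 36.3 and 30.7 CPM against 78.8, 92.5 and 79.5 CPM, a log2 difference of 1.21 (adjusted p = 0.0583). After resection both overlapped, with log2 differences of 0.49 and 0.46.

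P2ry14, a receptor for nucleotide sugars, was at 0.762, 2.78 and 3.25 CPM in P2 resected and 11.5, 12.1 and 17.3 CPM in P10 resected libraries, a log2 difference of 2.59 (adjusted p = 0.0901, edgeR's quasi-likelihood test), and overlapped after sham surgery. Also higher without overlap were Steap4 after sham surgery (log2 difference 1.36), Anpep after resection (0.82), Pdgfrl after sham surgery (0.57) and Rgs4 after sham surgery (1.13) and resection (0.57). Tbx18, a transcription factor of mural and epicardial cells, was lower after sham surgery by 1.05 without overlap (adjusted p = 0.0676). Cox4i2, Ndufa4l2, Foxs1, Colec11 and Ebf1 overlapped in both comparisons, at log2 differences of −0.43 to 0.29. The list's median was 0.57 after sham surgery and 0.46 after resection.

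Of 11 smooth muscle contractile genes, 1 passed after sham surgery and 0 after resection by edgeR's quasi-likelihood test, beside 3.18% and 0.860% of all genes, and nothing is read from a count this small. Lmod1, an actin nucleator of smooth muscle, rose by 2.53 (adjusted p = 0.0492, edgeR's quasi-likelihood test), from 0.931 ± 0.335 to 5.41 ± 1.31 CPM. Acta2, the smooth muscle actin that activated fibroblasts also make, differed by −0.60 and −0.99 without passing, and the list's medians were 0.00 and −0.44.

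The partners of the pathway genes were measured as well. Of 14 integrins, proteases and inhibitors that bind vitronectin or act with it, 13 were tested and 0 passed in either age comparison by edgeR's quasi-likelihood test, where 3.18% and 0.860% of all genes passed, a count of which nothing is read. Itgb1 was the most abundant, at group means of 1101 to 1678 CPM, Itgb5, the beta subunit of a vitronectin receptor, went from 383 ± 38.3 to 643 ± 79.6 CPM after sham surgery (log2 difference 0.75, adjusted p = 0.0536), Plat from 408 ± 71.1 to 604 ± 60.9 CPM (0.57, adjusted p = 0.164) and Serpine2 from 681 ± 124 to 748 ± 115 CPM (0.13, adjusted p = 0.847). Without overlap, 3 of the 13 were higher and 1 lower after sham surgery, Itgb5 and Plat among the higher, and 0 higher and 3 lower after resection, beside the shares of all genes given above.

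Of 5 genes, the Pdgf ligands with the receptor Pdgfra, and of 13 Notch ligands, receptors and targets, 0 passed in either age comparison, and with so few passing among all genes nothing is read from this. Of the 5, 0 lay apart after sham surgery, and 2 were higher and 0 lower after resection. Of the 13, 1 was higher and 1 lower without overlap after sham surgery, and 0 higher and 3 lower after resection. The shares of all genes were 9.07% higher and 7.61% lower, and 10.6% and 12.7%. Pdgfra had group means of 367 to 538 CPM, and Heyl, a Notch target of mural cells, 268 to 472 CPM. Kcnj11 and Abcc8, the other subunit genes of ATP-sensitive potassium channels, summed to at most 3.395 CPM in any library.

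Markers of other cells are given beside these results. After sham surgery all 9 macrophage genes had log2 differences above 0, with a median of 1.56, and 1 of 8 cardiomyocyte genes did, with a median of −1.19, and after resection the counts were also 9 of 9 (median 1.20) and 1 of 8 (median −0.57), none passing the test. The summed macrophage level was 7.76 to 155 CPM in P2 sham and 94.4 to 326 CPM in P10 sham, and 68.05 to 401 CPM in P2 resected and 69.8 to 1019 CPM in P10 resected libraries. Of 9 endothelial genes, 4 were above 0 after sham surgery and 8 after resection, with sums of 190 to 364 CPM in P2 sham and 286 to 513 CPM in P10 sham. Tek alone had means of 198 CPM in P2 sham and 326 CPM in P10 sham, most of the mean sums. The part of the endothelial genes in the Vtn result was not tested. Liver plasma protein genes bear on Vtn as a plasma protein. The 12 listed summed to 0.0929 to 8.002 CPM, Alb had 2 reads in all 18 libraries, and Ttr, alone among all listed markers, had none.

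Some counts can be affected by an overlapping gene, since strand was not used in counting. By exon bases, 1.89% of Abcc9, 6.03% of Notch3 and 0.507% of Mcam overlap a gene on the other strand, and 0 in the other 7 genes.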

How the data were processed

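GFP+ TCF21-lineage cells were sorted, RNA was amplified with a SMARTer Ultra Low Input kit, and Nextera XT libraries were read from 1 end. Per the submitters' notes and methods, the authors trimmed reads with fastp 0.20.0, aligned them to GRCm38.p6 with STAR 2.7.0f and counted exons per gene symbol without strand with featureCounts of Subread 1.6.4. The deposited values are raw gene counts for 18 libraries, which were checked not to repeat each other (chi-square per gene of 34.2 to 295 over the 18 replicate pairs). Strand-blind counting and low input amplification can shift levels of overlapping and long genes.

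From the counts, edgeR 4.0.16 in R 4.3.3 was run with TMM scaling, filterByExpr and 1 mean for each of 6 groups, called at an adjusted p under 0.05 (Benjamini-Hochberg over 16170 genes). CPM use TMM library sizes, and 0.5 was added before log2. The fit was tested on simulated counts. Exon positions, lengths and overlaps come from a GENCODE annotation of GRCm38 of a neighbouring release, and promoters from RefSeq. The 10 genes, the lists and the tests were chosen with earlier results of these data known. Named genes were the 10, the Vtn neighbours, from each list those called with age plus up to 4 of the most abundant, the 8 genes most like Vtn and Rgs5, and Tcf21. Alb, Ttr and the pericyte genes outside this rule (Gja4, Itga7, P2ry14, Rgs4, Tbx18, Cox4i2, Foxs1 and Colec11) were added after their values were seen. Alternatives were DESeq2 1.42.0, other scaling, no filter, a replicate block, fewer groups, left-out libraries, other pseudocounts, a length covariate and, like it added after seeing the data, the 3 libraries with titles ending in 3 left out. Sex was not used here.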

Additional observations from a re-analysis of the deposited data

How the results depend on the processing

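The rise of Vtn kept its sign under every alternative run, at log2 differences of 2.42 to 2.90 after sham surgery (adjusted p at most 0.0734) and 1.76 to 2.22 after resection (adjusted p up to 0.454). The Vtn to Pdgfrb difference was 1.96 to 2.21 with pseudocounts of 0.1 and 2, with Rgs5 as partner and without each library. Its permutation p was 0.005, the smallest possible, in each, which says nothing of stability. Over 350 values for the 10 genes, 313 kept direction and side of the threshold, 24 reversed, 12 came to pass and 1 no longer passed. Genes called after sham surgery, 515 in the report, were 911 with no filter, 125 with only the compared groups, 1190 with DESeq2, 1209 with the length slope and 312 to 416 without 1 library. After resection, 139 became 526, 332, 496, 408 and 30 to 136. The 0 calls for resection at P2, resection at P10 and their difference became 24, 76 and 30 with no filter and 25, 41 and 24 with DESeq2, and without 1 library at most 5 at P10 and 4 for the difference. With the 3 libraries whose titles end in 3 left out, an alternative chosen after seeing the data, genes called with age were 440 after sham surgery and 451 after resection, with resection 26 at P2 and 1 at P10, and 1 for the difference, and Vtn (adjusted p = 0.0392) and Mcam (0.0402) passed after resection. With DESeq2 size factors no count moved by over 1.5 times.

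The labels do not say what a replicate number marks. The 3 libraries with the highest length slopes relative to their group are all replicate 1 of their group, and the other 3 with that number have slopes of −0.0135 to 0.0326. Over 45 same-number pairs of groups the deviations correlated at −0.18 to 0.45 (median 0.06), 18 pairs above 0.1. The replicate block gave 636 and 186 genes for age after sham surgery and resection, and 1 and 1 for resection at P2 and P10. It left Vtn at 2.63 (adjusted p = 0.0156), brought Myh11 to 2.89 (0.0359) and turned Higd1b to −0.0191 and Myh11 between resection and sham surgery at P10 to −0.11.

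Myh11 after sham surgery also passed with no filter (adjusted p = 5.4e-08), the compared groups only (0.0370), DESeq2 (0.00758) and the length slope (0.0357), and with no filter Mcam with age after resection (0.0153) and Myh11 with resection at P2 (1.87, 0.0170). With the length slope, Higd1b turned to −0.0261 after sham surgery, and Pdgfrb to 0.10, Abcc9 to 0.0534 and Cspg4 to 0.17 after resection. Without 1 library, the sham difference of Notch3 ran from −1.30 to 0.0796, of Higd1b from −0.17 to 0.31, of Cspg4 from −0.33 to 1.85, of Abcc9 from −0.14 to 0.82 of Rgs5 from −0.0132 to 0.76, of Pdgfrb from 0.17 to 0.90, of Kcnj8 from 0.33 to 0.93 and of Mcam from −1.16 to −0.41, the age difference after resection of Pdgfrb from −0.42 to 0.13, of Rgs5 from 0.0288 to 0.52, of Kcnj8 from 0.44 to 0.96, of Abcc9 from −0.46 to −0.13, of Cspg4 from −0.74 to −0.00877, of Notch3 from −1.12 to −0.50 and of Higd1b from 0.24 to 0.62, and Myh11 between resection and sham surgery at P10 from −0.12 to 0.35. The cause of these changes was not tested. With 3 libraries a group, the spread limits the genes of the length-linked block, and depth limits Vtn at P2 baseline, where 3 reads are 0.138 to 0.183 CPM.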
